A study of Homo sapiens with 21 samples.

Results

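The genes described here are 8 members of the MHC class I antigen-presentation pathway and its relatives: the heavy chains HLA-B, HLA-C and HLA-E, the light chain B2M, the peptide transporter subunits TAP1 and TAP2, the loading factor TAPBP, and FCGRT. They were chosen by their values in the 6 deposited comparison tables of an iPSC-to-cardiomyocyte differentiation and of UBE2B-/- cardiomyocytes. Their changes in those comparisons are therefore given as a description, with no test. Of the 8 genes, 7 had at least 1 transcript in a table, and TAPBP had none. The 7 genes were listed with 21 transcript identifiers, of 21537 listed in all, and with 30 entries over the 6 tables, of 36579 in all. Some identifiers of 1 gene carried identical values, and counting those once left 22 results.

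Poly-A RNA was sequenced from PGP1, an established human iPSC line, at 5 stages: undifferentiated iPSCs, mesoderm (M), cardiac mesoderm (CMes), cardiac progenitors (CP) and cardiomyocytes (CM). There were 3 wild-type libraries per stage, 15 in all, and 3 CM libraries from each of 2 UBE2B-/- lines, UBE2B-/-1 and UBE2B-/-2, made in the same PGP1 background with CRISPR-Cas9. UBE2B is an E2 ubiquitin-conjugating enzyme of the complex that monoubiquitylates histone H2B. Each library came from a plate begun at a different time. The CMs were enriched in lactate medium after beating began, the mutant CMs sequenced were beating cultures, and each UBE2B-/- line was grown from picked colonies and stands for 1 clone. The tables list a transcript only where its q-value was at most 0.05, so a transcript absent from a table was either not tested or above that limit.

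Class I molecules display peptides from inside the cell to cytotoxic T cells. A heavy chain such as HLA-B or HLA-C pairs with the invariant light chain B2M, and the TAP1 and TAP2 subunits pump peptides from the cytosol into the endoplasmic reticulum, where TAPBP bridges the transporter and the empty heavy chain. HLA-E shows leader peptides of other class I chains to natural killer cells, and FCGRT encodes the heavy chain of the neonatal Fc receptor, a class I-like molecule that also pairs with B2M but carries IgG and albumin instead of peptide. The pathway is known to be low in pluripotent cells and to be inducible by interferon.

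Values are Kallisto's estimated counts, normalized between libraries by the authors, and a level is the mean of 3 libraries after back-transforming the natural log of the count plus 0.5. No single library's value is in the tables, so whether the libraries of groups overlapped cannot be read from them, and the spread is the replicate SD of the fit, given on the log2 scale. A change is the difference on the log2 scale with the standard error of the authors' fit, and levels are not corrected for transcript length. A transcript is called changed where its q-value was at most 0.05 and its effect b at least 0.585 in size on the natural-log scale, a 1.79-fold change. The study's methods state a less strict limit, an absolute fold change of at least 1.5. The authors' p-values come from a normal distribution. With a t distribution on the residual degrees of freedom (4 for a pair of stages, 6 for the lines), 0 member transcripts were called in any comparison. Over all transcripts it left 1 call from CMes to CP, 144 lower and 417 higher from CP to CM, and 0 in the other comparisons. In bulk RNA, fewer cells of a type and less RNA per cell cannot be told apart.

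The windows of 250 bases before the RefSeq start of 6 of the genes are shown because interferon-type elements there are a known feature of class I genes (GRCh38.p14, as given by RefSeq). Between 83 of the 250 bases (TAP2) and all 250 (HLA-B) are exon in other GENCODE 44 transcripts. Capitals mark 2 forms of the interferon-type core, searched on both strands. The full form is GAAA, any 2 bases and GAAA, and the shorter form is GAA, any 2 bases and GAAA.
HLA-B, chr6:31357180-31357429, minus strand: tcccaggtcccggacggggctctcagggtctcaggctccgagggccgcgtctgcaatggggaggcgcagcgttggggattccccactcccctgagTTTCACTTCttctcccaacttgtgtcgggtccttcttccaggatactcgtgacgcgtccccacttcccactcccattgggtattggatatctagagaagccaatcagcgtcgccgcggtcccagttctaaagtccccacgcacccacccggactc
HLA-C, chr6:31272093-31272342, minus strand: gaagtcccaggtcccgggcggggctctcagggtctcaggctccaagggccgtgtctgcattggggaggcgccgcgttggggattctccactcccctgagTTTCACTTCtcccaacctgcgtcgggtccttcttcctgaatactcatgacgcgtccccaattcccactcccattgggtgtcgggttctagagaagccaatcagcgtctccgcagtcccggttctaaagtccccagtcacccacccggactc
B2M, chr15:44711267-44711516, plus strand: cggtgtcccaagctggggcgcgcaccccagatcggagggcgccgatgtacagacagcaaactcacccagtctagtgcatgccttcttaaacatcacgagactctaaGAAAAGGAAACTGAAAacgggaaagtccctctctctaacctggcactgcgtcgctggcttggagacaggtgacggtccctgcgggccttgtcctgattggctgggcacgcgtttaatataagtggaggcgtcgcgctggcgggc
TAP1, chr6:32853705-32853954, minus strand: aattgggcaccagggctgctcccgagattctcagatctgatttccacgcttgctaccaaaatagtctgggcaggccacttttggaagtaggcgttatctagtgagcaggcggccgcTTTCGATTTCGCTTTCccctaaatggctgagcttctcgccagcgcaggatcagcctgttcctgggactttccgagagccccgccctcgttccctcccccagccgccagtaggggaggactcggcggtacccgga
TAP2, chr6:32838740-32838989, minus strand: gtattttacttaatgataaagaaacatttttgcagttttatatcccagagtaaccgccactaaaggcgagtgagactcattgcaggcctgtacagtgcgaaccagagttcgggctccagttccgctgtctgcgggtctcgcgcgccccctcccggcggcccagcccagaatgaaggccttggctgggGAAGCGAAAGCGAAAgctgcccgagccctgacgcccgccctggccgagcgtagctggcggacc
FCGRT, chr19:49512411-49512660, plus strand: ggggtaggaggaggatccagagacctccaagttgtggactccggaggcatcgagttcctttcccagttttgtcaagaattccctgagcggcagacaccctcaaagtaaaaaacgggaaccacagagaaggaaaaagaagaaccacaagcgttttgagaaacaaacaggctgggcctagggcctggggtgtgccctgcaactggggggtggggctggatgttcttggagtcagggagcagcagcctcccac

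The full form was in the windows of B2M, TAP1, TAP2 and TAPBP, and in 3.02% of all 35116 promoter windows of the same length. B2M held 2 overlapping matches that began 144 and 138 bases before the start. TAP1 held 2 overlapping matches at 134 and 128 bases, and the window before a second RefSeq start of TAP1, not shown, held neither form. TAP2 held 1, which overlaps a match to the shorter form. HLA-B and HLA-C each held 1 match to the shorter form, at 155 and 151 bases, and it was in 6.56% of all windows. Their windows were alike over their whole length, with 226 of 254 aligned positions identical (89.0%). The FCGRT window held neither form, and 9.08% of all windows held at least 1 of them. This FCGRT window lies before the start of the reference transcript, which was listed in no comparison. The listed FCGRT transcripts begin further downstream (493 bases for ENST00000426395.7), and the stretch directly before their starts was not searched. A match is a description of the letters and not evidence of a site in use.

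**Figure D1:**
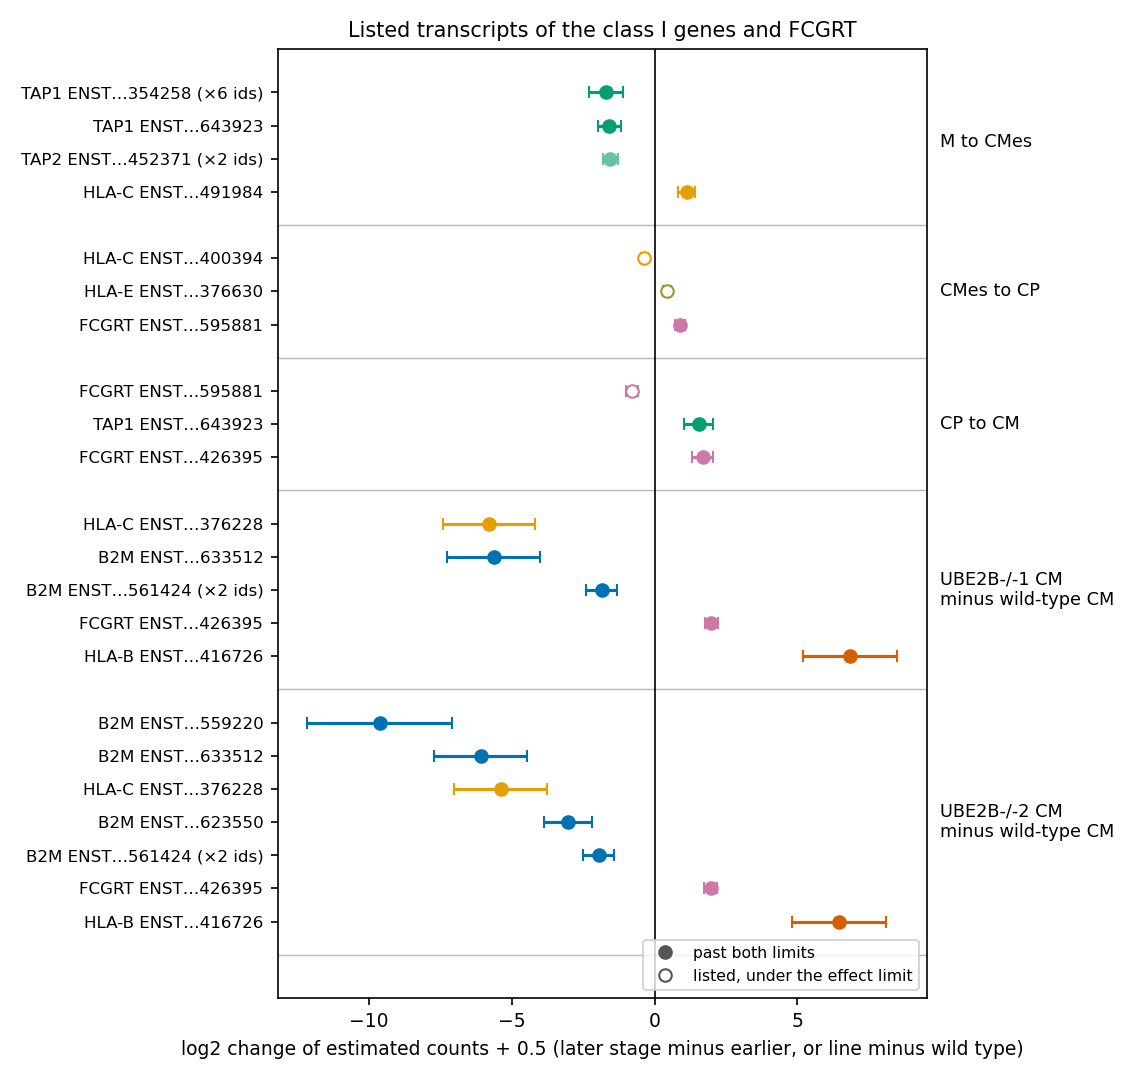
Change of every listed member transcript in each comparison, on the log2 scale of estimated counts plus 0.5, with bars of 1 standard error; identifiers with identical values share 1 point, and open points were listed but under the limit on b. The iPSC to M comparison listed no member. TAP1 and TAP2 lie below 0 from M to CMes, FCGRT ENST00000426395.7 lies near 2 in both UBE2B-/- lines with short bars, and HLA-B, HLA-C and 2 B2M transcripts have bars of over 1.6.

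From iPSC to M, no member transcript was listed. In that comparison 1.62% of 68446 tested transcripts were called lower and 1.24% higher.

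From M to CMes, the listed transcripts of both subunits of the peptide transporter fell. All 9 member identifiers called lower belonged to TAP1 or TAP2, and after identical values were counted once they made 3 results. Of all 70285 transcripts tested there, 2.65% were called lower and 3.81% higher. Among the members, the only transcript called higher was 1 of HLA-C.

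TAP2, which forms the transporter with TAP1, was listed as ENST00000452371.6, and ENST00000455842.2 carried the same values. Its level was 170 estimated counts per identifier at M and 57.9 at CMes, with a replicate SD of 0.23. The change was -1.55 ± 0.26 (SE, n = 3 libraries per stage), or 2.92-fold lower at CMes. The stages lay further apart than the replicate SD, and the summed level of both identifiers went from 341 to 116.

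TAP1 was listed as 2 kinds of transcript. ENST00000354258.4, the reference coding transcript on the minus strand of chromosome 6 (chr6:32845209-32853704, 11 exons), went from 46.0 estimated counts per identifier at M to 13.8 at CMes (-1.71 ± 0.59). The same values stood under 5 other identifiers, so that the 6 together went from 276 to 82.5. The second kind, ENST00000643923.1, shares the last 10 exons nearly whole but has its own first exon and no annotated coding sequence. Its level was 217 at M and 72.2 at CMes (-1.58 ± 0.39), with a replicate SD of 0.48. The values of both kinds of TAP1 transcript and of TAP2 were thus between -1.71 and -1.55. Of the 31-base words of ENST00000643923.1, 27.5% occur in transcripts of other genes too, most of them (24.9%) in PSMB8-AS1, which lies antisense to it. For the reference TAP1 transcript these shares were 22.6% and 20.7%, and 35.5% of the words of the reference TAP2 transcript occur in other genes. The strand setting of the counting is not given in the sources used here, so reads from TAP1 and PSMB8-AS1 cannot be told apart over those words.

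HLA-C, a classical heavy chain, went the other way in this comparison. The level of ENST00000491984.5 was 330 at M and 719 at CMes, and the change was 1.12 ± 0.31. Its replicate SD was 0.15, against 0.34 for the technical SD of Kallisto's quantification in the authors' fit, so the estimate of the technical spread was larger than the spread seen between replicates. This identifier is not among the HLA-C transcripts of GENCODE 44, and its place in the gene is therefore not described.

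Marker lists moved in the same comparison. Of 5 pluripotency markers, 4 were listed and 3 were called lower (DPPA4, NANOG and POU5F1), and their summed level went from 32794 at M to 15783 at CMes. Of 6 stromal markers 4 were called higher, with sums of 17.9 and 164, and of 7 cardiomyocyte markers only MYL7 was. Each sum takes 1 transcript per gene, the listed one with the highest mean in that comparison. Sums of 1 list therefore cover different transcripts in different comparisons and are not gene totals. For COL1A1 it was ENST00000507689.1 here, with 57.3 at CMes, and ENST00000225964.9 from CMes to CP, with 1609 at CMes. Of 6 hepatic endoderm markers 3 were called higher (sums of 97.9 and 2586), as were the endothelial marker VWF (3.72 and 1099), 2 smooth muscle markers (845 and 3074), the epicardial marker TCF21 and the epithelial markers KRT8 and KRT18, where the 4 listed epithelial markers summed to 25158 and 53526. No immune marker was listed. The part of a change in cell types in the TAP1 and TAP2 values was not tested.

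From CMes to CP, 3 members were listed, with 1 transcript each, and 1 of them was called. Of all 71328 tested transcripts 2.63% were called lower and 3.8% higher, against 0 and 1 of the members. The called transcript was FCGRT ENST00000595881.1, whose level was 224 at CMes and 417 at CP. Its change was 0.90 ± 0.17 and its replicate SD 0.16. ENST00000595881.1 (chr19:49513195-49526331, plus strand, 3 exons, 2681 bases) is a transcript with no annotated coding sequence that keeps 3 introns of the reference FCGRT transcript, of 408, 77 and 680 bases.

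The other 2 listed transcripts were heavy chains with changes below the limit. HLA-E ENST00000376630.5, the reference coding transcript (chr6:30489509-30494194, plus strand, 8 exons), stood at 747 estimated counts at CMes and at 1019 at CP (0.45 ± 0.14). HLA-C ENST00000400394.7 stood at 1455 and 1138 (-0.35 ± 0.12). These were the smallest listed changes of any member, and the 2 heavy chains differed in sign. In the same comparison 6 of 7 cardiomyocyte markers and 4 of 6 stromal markers were called higher, with sums from 652 to 11411 and from 3671 to 73437. Also higher were 3 hepatic endoderm markers (AFP, APOA1 and TTR, with the sum of the 5 listed going from 2613 to 25106), all 3 epicardial markers (18.2 to 240), 2 smooth muscle markers (447 to 5675), the epithelial marker KRT18 and the immune marker PTPRC (1.59 to 161), while 4 pluripotency markers (15883 to 2636), SOX17 and VWF were lower. The part of these cell types in the FCGRT value was not tested.

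From CP to CM, a transcript of FCGRT and a transcript of TAP1 were called higher, while another FCGRT transcript was listed as lower. This was the comparison with the most calls over all 69937 tested transcripts, of which 6.99% were called lower and 8.25% higher. No member was called lower at the limit on b used here. At a limit of 1.5-fold, FCGRT ENST00000595881.1 was called lower.

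FCGRT showed 2 transcripts that went in opposite directions, and the total over the gene was not measured. ENST00000426395.7, which codes for the whole receptor heavy chain, had 70.7 estimated counts at CP and 229 at CM, a change of 1.69 ± 0.37, or 3.22-fold. The intron-retaining ENST00000595881.1 had 370 at CP and 212 at CM, a difference of -0.80 ± 0.21. The latter lay just outside the limit, with an absolute b of 0.553, while its rise from CMes to CP lay just inside at 0.623. Put on the scale of the CP to CM table, ENST00000595881.1 stood at 198 at CMes, 370 at CP and 212 at CM. It thus peaked at CP, and CM and CMes differed by 0.10 on the log2 scale, less than its replicate SD. The CP libraries are shared by the 2 comparisons.

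TAP1 ENST00000643923.1 had 69.6 estimated counts at CP and 204 at CM, a change of 1.54 ± 0.50 with a replicate SD of 0.45. Its technical SD was larger, at 0.51, and its call was lost at a q-value limit of 0.01. The reference coding TAP1 transcript was not listed in this comparison. On the common scale the level of ENST00000643923.1 was 193 at M, 64.3 at CMes, 69.6 at CP and 204 at CM. Its levels therefore fell between M and CMes and stood again near the M level in CMs. The differences between M and CM (0.08) and between CMes and CP (0.11) were smaller than the replicate SD and were not tested, since no table compares M with CM and the CMes to CP table does not list this transcript.

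**Figure D2:**
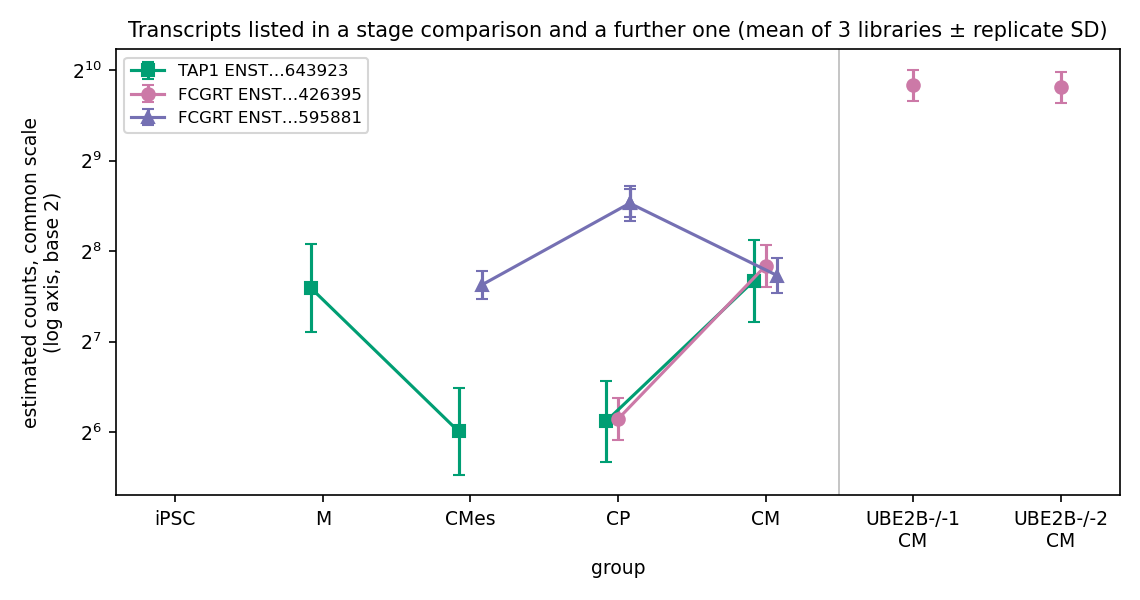
Levels of the 3 member transcripts listed in a stage comparison and in at least 1 further comparison, in estimated counts on a common scale (log axis), for the 5 wild-type stages and both UBE2B-/- lines; points are means of 3 libraries, bars 1 replicate SD, and a stage without a point was not listed. TAP1 ENST00000643923.1 is low at CMes and CP, FCGRT ENST00000595881.1 is highest at CP (370), and FCGRT ENST00000426395.7 goes from 70.7 at CP to 229 in wild-type CMs and to 912 and 898 in the mutant lines.

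Between CP and CM all 7 cardiomyocyte markers were called higher, and their summed level went from 10292 to 370368. All 4 listed pluripotency markers were called lower, as were 3 endothelial, 4 hepatic endoderm and 3 epithelial markers, and the 5 listed stromal markers were split, 3 lower and 2 higher. All 4 smooth muscle markers were called higher, and 2 epicardial markers and the immune marker CD163 were called lower. The part of this change in makeup in the FCGRT and TAP1 values was not tested.

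In UBE2B-/- CMs against wild-type CMs, an FCGRT and an HLA-B transcript were higher, and transcripts of B2M and HLA-C were lower. For UBE2B-/-1, 4 identifiers were called lower and 2 higher. Over all 65457 transcripts tested, 1.72% were called lower and 2.18% higher. For UBE2B-/-2, 6 identifiers were called lower and 2 higher, against 1.53% and 2.46% of all. Both comparisons use the same 3 wild-type libraries and come from 1 fit of 9 libraries, so the lines share a standard error and are set side by side without being counted as separate evidence.

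FCGRT ENST00000426395.7 had the smallest replicate SD of the member transcripts listed for the lines. Its level was 264 estimated counts in wild-type CMs, 1052 in UBE2B-/-1 CMs and 1036 in UBE2B-/-2 CMs, with a replicate SD of 0.18. The changes were 1.99 ± 0.23 and 1.97 ± 0.23 (SE, n = 3 libraries per group), and their mean was 1.98 ± 0.20, or 3.95-fold. By p-value the transcript stood at rank 9 for UBE2B-/-1 and at rank 13 for UBE2B-/-2. The values of the lines lay 0.02 apart. Counted from CP on the common scale, the level in the mutant lines was higher by 3.68 and 3.66, while wild-type CMs were higher than CP by 1.69.

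ENST00000426395.7 lies on the plus strand at chr19:49513154-49526333 in 6 exons and 1559 bases. Its coding sequence of 1095 bases is the same as that of the reference transcript ENST00000221466.10, but its first exon begins 493 bases further downstream, inside the first intron of the reference. It thus differs from the reference in its 5′ untranslated region, and it also ends short of the reference in the 3′ untranslated region. Of its 31-base words, 98.5% occur in other FCGRT transcripts and 0% in other genes, so its level depends on how Kallisto divided reads between FCGRT transcripts. The reference transcript was listed in no table.

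By the likeness of the changes in the 3 tables that list it (CP to CM and both lines), the genes nearest to FCGRT ENST00000426395.7 among 1219 transcripts listed in the same 3 tables were CHPF, at a distance of 0.56 on the log2 scale, PDGFC at 0.65 and SFXN3 at 0.70. CHPF changed by 1.51, 1.53 and 1.70 in those tables. PDGFC changed by 1.94, 1.66 and 1.47, and SFXN3 by 1.55, 1.54 and 1.46. The 3 comparisons share the wild-type CM libraries.

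B2M, the light chain of both class I molecules and the neonatal Fc receptor, was lower in both lines. ENST00000561424.5 had 3552 estimated counts in wild-type CMs, 981 in UBE2B-/-1 and 914 in UBE2B-/-2, and ENST00000631728.1 carried the same values, for summed levels of 7104, 1962 and 1827. The changes were -1.86 and -1.96, each ± 0.55, with a mean of -1.91 ± 0.48. The replicate SD was 0.67, against 0.24 for transcripts of a like level in the authors' variance trend and 0.05 for the technical SD. The spread between replicates of this transcript was thus larger than that of 97.1% of the 341 transcripts listed for both lines with a mean within 0.5 of its own on the log2 scale. The values of the lines lay 0.10 apart.

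ENST00000561424.5 (chr15:44711509-44718851, plus strand, 5 exons, 604 bases) holds the same 357-base coding sequence as the reference B2M transcript, ENST00000648006.3. It splices out a further 1053 bases after the stop codon, and GENCODE 44 classes it as a target of nonsense-mediated decay. The reference transcript was in no table, and 83.6% of the 31-base words of ENST00000561424.5 occur in other B2M transcripts. The values therefore describe these transcripts and not the sum over the gene.

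A further 3 B2M transcripts were lower. ENST00000633512.1 had 74.1 estimated counts in wild-type CMs and 1.00 and 0.60 in the lines, with changes of -5.63 and -6.09, each ± 1.63. ENST00000559220.1 and ENST00000623550.1 were listed for UBE2B-/-2 only, with changes of -9.63 ± 2.53 and -3.03 ± 0.85. ENST00000623550.1 (chr15:44715817-44718145, 1 exon) keeps the 1250-base intron before the last exon and has no coding sequence. Its change in UBE2B-/-1 was recovered from the variance columns, which leave 2 values, -2.26 or -0.78, and for ENST00000559220.1 these were -7.68 or -1.95. Which of the 2 values holds is not known, and whether the lines differ for these 2 transcripts was not tested.

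HLA-B and HLA-C, both classical heavy chains, were listed with 1 transcript each and in opposite directions. HLA-B ENST00000416726.5 had 1.38 estimated counts in wild-type CMs, 216 in UBE2B-/-1 and 165 in UBE2B-/-2, and changes of 6.84 and 6.46, each ± 1.66. HLA-C ENST00000376228.9, the reference coding transcript (chr6:31268749-31272092, minus strand, 8 exons), had 60.3 in wild-type CMs, 0.59 in UBE2B-/-1 and 0.95 in UBE2B-/-2, with changes of -5.80 and -5.39, each ± 1.62. In each case 1 side stood under 3 estimated counts, so the size of the change depends on the 0.5 added before the log and no fold is given. The replicate SDs were 2.03 for HLA-B, 1.99 for HLA-C and 1.99 for B2M ENST00000633512.1, larger than those of 80.3%, 90.0% and 89.5% of the transcripts listed for both lines with a mean within 0.5 of their own on the log2 scale. A level under 3 in 1 group was not rare: it held for 16.7% of the 1692 transcripts called for UBE2B-/-1 and listed for both lines, and for 17.3% of 1672 for UBE2B-/-2.

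Reads of class I heavy chains are hard to place. Of the 31-base words of HLA-C ENST00000376228.9, 10.8% also occur in HLA-B, and 100% occur in other HLA-C transcripts. HLA-B ENST00000416726.5, HLA-C ENST00000491984.5 and ENST00000400394.7 and both TAP2 identifiers are among the 13 of 21 member identifiers that GENCODE 44 does not hold. HLA-C ENST00000400394.7, with 1138 estimated counts at CP, and ENST00000491984.5, with 719 at CMes, were listed for neither line. The HLA-B and HLA-C values are thus values of single transcripts, and the total of each gene was not measured.

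**Figure D3:**
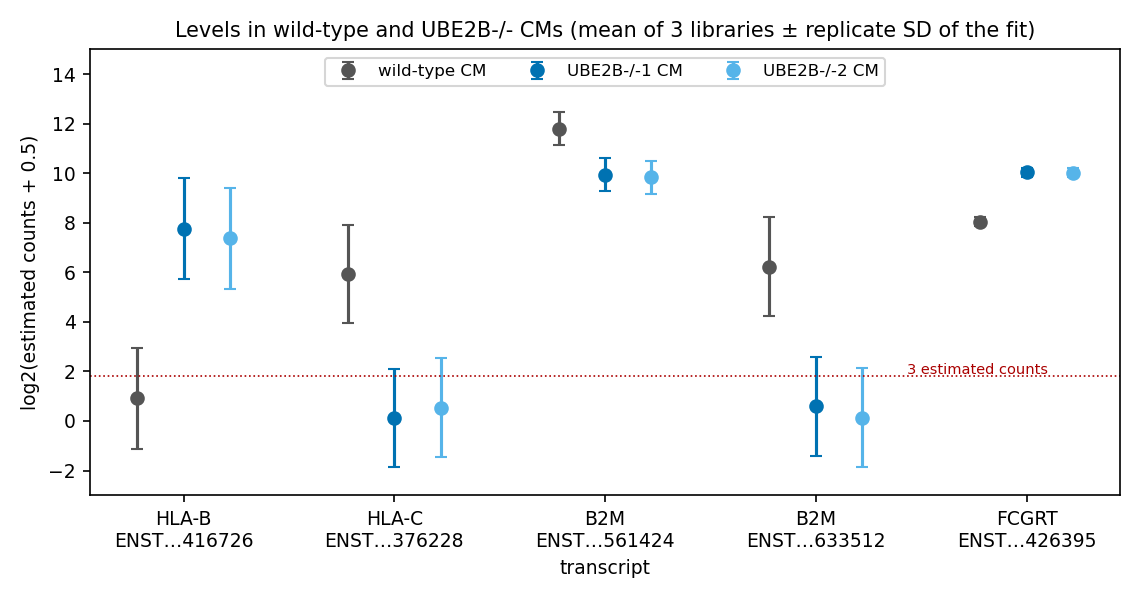
Levels of the 5 member transcripts listed for both lines, as log2 of estimated counts plus 0.5 in wild-type, UBE2B-/-1 and UBE2B-/-2 CMs; points are means of 3 libraries, bars 1 replicate SD of the fit, and the dotted line marks 3 estimated counts. FCGRT rises from 264 to 1052 and 1036 with bars smaller than the gap, while HLA-B in wild-type CMs and HLA-C and B2M ENST00000633512.1 in both lines lie below the dotted line.

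**Figure D4:**
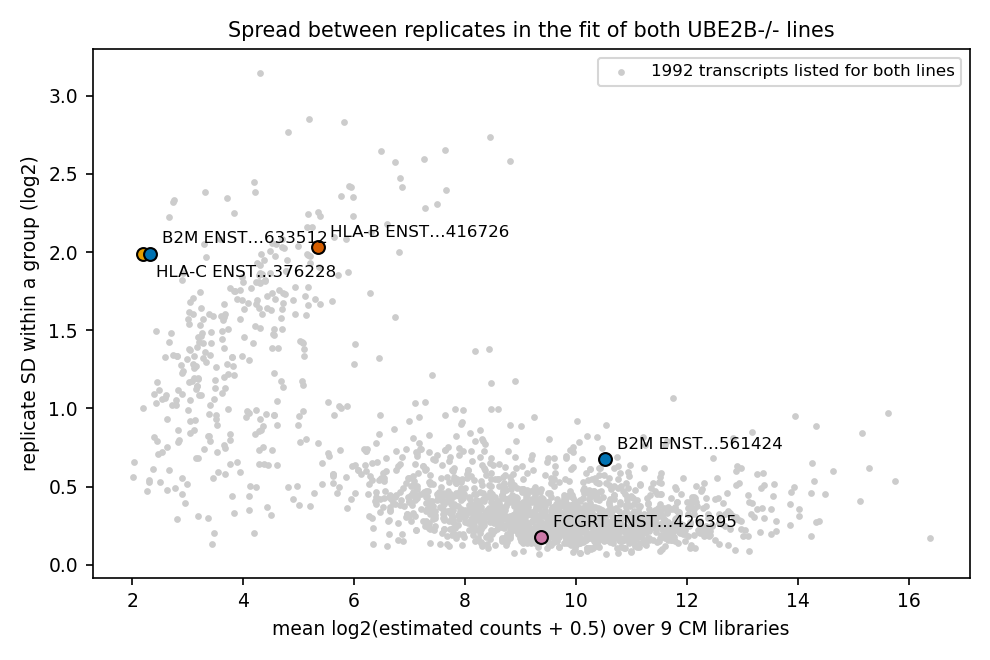
Replicate SD (log2) against mean log2 of estimated counts plus 0.5 over 9 CM libraries, for the 1992 transcripts listed for both lines (grey) and the members (coloured). FCGRT (0.18) lies at the lower edge, B2M ENST00000561424.5 (0.67) at the upper edge for its level, and HLA-B, HLA-C and B2M ENST00000633512.1 among the transcripts with the widest spread.

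The RNA level of the targeted gene could be followed for 1 line. The study checked the knockouts of both lines by cDNA sequencing and reported decreased H2B monoubiquitylation in the UBE2B-/- lines. UBE2B ENST00000499038.2 was lower in UBE2B-/-1 CMs by a log2 change of -1.91 ± 0.53, and no UBE2B transcript was listed for UBE2B-/-2. For all 1992 transcripts listed for both lines, 0 differed between the lines at a q-value of 0.05 in a normal test of the 2 coefficients of the authors' Sleuth fit, 29 at an unadjusted p under 0.05, and with the t distribution 0 and 11. Only transcripts past the q-value limit in both lines could enter, of 3088 listed for UBE2B-/-1 and 3134 for UBE2B-/-2. Changes found in 1 line alone were thus left out, and the 0 does not show that the lines are alike. The 2 B2M transcripts listed for UBE2B-/-2 alone were not among the 1992.

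Markers of several cell types differed between the lines and wild type. COL3A1 and DCN, listed for both lines, had a summed level of 7399 in wild-type CMs, 84867 in UBE2B-/-1 and 208832 in UBE2B-/-2, and for UBE2B-/-2 COL1A1, COL1A2 and LUM were called higher too, 5 of the 6 stromal markers. Of the 7 cardiomyocyte markers, 3 were called lower in UBE2B-/-1 (ACTN2, MYL7 and TNNT2), with summed levels of 42592, 14970 and 12373, and 4 in UBE2B-/-2. The sums cover fewer and partly other transcripts than those from CP to CM. MYL7 was ENST00000431007.1 in UBE2B-/-1, with 487 estimated counts in wild-type CMs. MYL7 ENST00000223364.7, with 79957 at CM in the CP to CM comparison, was listed for neither line, nor were MYH7, NKX2-5 and TNNI3. The median change of the listed stromal markers in UBE2B-/-1 was 4.99 and that of the listed cardiomyocyte markers -1.48, beside 0.73 over all listed transcripts. No immune or pluripotency marker was listed in either table. Called higher in both lines were TCF21 (7.24 and 3.61, from different transcripts) and KRT18 (1.17 and 1.46). Called lower in both were CNN1 (-1.87 and -1.84) and KRT8 (-3.83 and -3.18). SOX17 was called higher for UBE2B-/-1, and KDR higher and EPCAM lower for UBE2B-/-2. The part of a different makeup of cell types in the FCGRT, B2M, HLA-B and HLA-C values was not tested.

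The other genes of the pathway were followed in 10 lists. The immunoproteasome and its activator (5 genes) had PSMB10 lower from M to CMes, at -1.13 ± 0.36, and PSME2 higher from CP to CM, at 0.87 ± 0.30. Each was the only gene of this list that was listed in that comparison. Of all transcripts tested, 2.65% were called lower from M to CMes and 8.25% higher from CP to CM. PSME1 was listed from CMes to CP, at 0.55 ± 0.17, and was not called, and no gene of this list was listed for either line. The 3 constitutive catalytic subunits were called in no comparison. Of the 7 genes of peptide trimming and loading, LNPEP, an aminopeptidase, rose by 1.94 ± 0.13 from CP to CM and was lower in both lines, by -1.24 ± 0.20 and -0.97 ± 0.20, while CALR, a chaperone of the heavy chain, was higher in UBE2B-/-2, at 0.89 ± 0.27. HLA-F, a further heavy chain, was listed at 0 at CP and at 17.9 estimated counts at CM, and was called higher.

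Interferon-stimulated genes were called in both directions. Of 18 interferon-stimulated genes, 1 was called lower from iPSC to M (IFITM2, -0.94), 1 higher from M to CMes (BST2, 1.38), and 2 lower and 1 higher on the way to CP. In the last transition 2 were lower (BST2, -4.05, and IFITM1, -2.68) and 2 higher (IFIT1, 2.81, and IFITM2, 0.95). None of the 18 was listed for either UBE2B-/- line. Of 7 interferon receptors and kinases, JAK2 was higher from M to CMes (1.09), as was TYK2, listed at 0 at M and at 42.4 estimated counts at CMes. IFNAR1, JAK1 and JAK2 were higher from CP to CM, at 2.26, 1.71 and 2.15, and JAK2 was lower in both lines, at -1.69 ± 0.23 and -1.82 ± 0.23, while another TYK2 transcript was called higher in UBE2B-/-2. Of 16 regulators of class I transcription, a scarce RELA transcript was higher from iPSC to M, and IRF9, NFYC and RELA were higher and RFXAP lower from CP to CM. Of that list RFXANK was called in UBE2B-/-1, at 5.99 ± 1.94, and no gene in UBE2B-/-2.

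Class II genes and class I-like ligands were called in several comparisons. Of 11 class II genes, CD74 (-0.93) and HLA-DRA were lower from M to CMes, HLA-DRA with 33.1 estimated counts at M and 0.66 at CMes. HLA-DPA1, with 0.69 at CMes and 481 at CP, and HLA-DPB1 (2.45) were higher from CMes to CP. Both were lower from CP to CM (-6.33 and -4.18), together with HLA-DOA. HLA-DQA1 was lower in UBE2B-/-2, at -0.87 ± 0.23. The same transcript was listed for UBE2B-/-1 at -0.74 ± 0.23, under the limit on b. CD1D, a lipid-presenting relative of class I that also pairs with B2M, was higher from iPSC to M (2.34 ± 0.42), lower from M to CMes (-1.59 ± 0.48) and lower from CMes to CP (-3.96 ± 0.83). MICA and ULBP3, ligands of a natural killer cell receptor, were higher from CP to CM, at 3.27 ± 0.69 and 1.10 ± 0.29. None of 6 other Fc receptors was listed in any comparison.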

How the data were processed

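RNA-seq of 15 wild-type libraries (5 stages of PGP1 differentiation) and 6 libraries of UBE2B-/- CMs was used. The ChIP-seq and mouse data were not analysed here. Per the study's methods, the authors removed poor reads with the FASTX-Toolkit, estimated transcript counts with Kallisto on hg38 and fitted Sleuth's Wald test for each pair of adjacent stages and for each line. Each transcript of the deposited tables has its p-value and q-value and b, the difference in natural log units of the estimated count plus 0.5. The standard error of b and the variance terms are scores that the authors' fit gave in the same log units, the latter squared. These are the authors' own comparisons, since nothing else was used here, and only q-values up to 0.05 are listed. There are 0 columns of single libraries, so depth and total counts are unknown and no interval from counting can be given.

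Group levels were recovered from b and the mean, replicate variances from the variance columns, and the number of transcripts tested from p-value, rank and q-value. Identities behind these steps held on every listed transcript and were tested on simulated data. Tables were placed on 1 scale by the median offset of transcripts they share. A call needed a q-value no higher than 0.05 and b no smaller than 0.585 in size. Line 1 minus line 2 was tested against 1 line's standard error, in which wild type cancels, and adjusted by Benjamini-Hochberg over 1992 transcripts. Transcript annotation came from GENCODE 44, promoters from RefSeq, and words of 31 bases were counted on either strand (Python 3.11.15, numpy 2.4.6, scipy 1.17.1, pandas 2.3.3, Biopython 1.88). Replicates came from separate plates of 1 cell line.

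Values are printed for the listed transcript of each member with the highest mean in each table, for each listed for both lines or in several tables, and for the other B2M transcripts. Members, marker lists and pathway lists were chosen with earlier results of these data known. Some genes of the lists and 1 sequence are not reported here.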

Additional observations from a re-analysis of the deposited data

How the results depend on the processing

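No paired analysis was possible because the tables hold no value per library, and for the same reason no library could be left out. The 19 called results of the members (identical values counted once) all kept their call when the standard error used only each transcript's own variance. This outcome was fixed in advance and is no check. The authors' fit takes the larger of that variance and the trend over transcripts of like level, so the error could only shrink. When the normal distribution was replaced by a t distribution with the residual degrees of freedom, 0 of the 19 kept their call. With that distribution the counts of called identifiers became 0 in every comparison (9 lower and 1 higher from M to CMes, 1 higher from CMes to CP, 2 higher from CP to CM, 4 lower and 2 higher for UBE2B-/-1, 6 lower and 2 higher for UBE2B-/-2 before). Over all transcripts it then left 1 call from CMes to CP, 144 lower and 417 higher from CP to CM, and 0 in the other comparisons. With q-values up to 0.01, 3 identifiers were lower from M to CMes, 1 higher from CP to CM, 0 lower for UBE2B-/-1 and 2 lower for UBE2B-/-2. With no limit on b, 1 was lower and 2 were higher from CMes to CP and 1 was lower from CP to CM, as it was with a limit at 1.5-fold on the natural-log scale. With a mean of at least 10 estimated counts, 2 were lower for UBE2B-/-1, and with identical values counted once 3 were lower from M to CMes. The difference between the lines had 0 calls with either distribution, among transcripts already listed for both lines only. Depth per library is unknown, so changes of transcripts under 3 estimated counts in 1 group are the least certain in size.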
